A study of Mus musculus with 8 samples.

Results

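MCE301 cells that had been exposed to butyrate for 12 h were compared with MCE301 cells at 0 h, over all genes that could be named on the array. MCE301 is a mouse colonic epithelial line derived from transgenic animals that carry a temperature-sensitive SV40 large T-antigen. It is 1 cell line, and the labels name neither the promoter that drives the transgene nor the temperature of the cultures. All groups carry the transgene, and all but 0 h received sodium butyrate at 2 mM, for 6, 12 or 24 h. The 4 times are represented by 2 Affymetrix Mouse Expression Array 430A arrays of total RNA each, so the comparison rests on 4 of 8 arrays. The array table holds 22690 probe sets. With control probe sets and those annotated with several genes or none left out, 12393 genes remained, each represented by its probe set with the highest mean over the 8 arrays. Of these, 7338 were tested, because their probe set exceeded the median of all signals (144.5) on at least 2 arrays; the other genes were too dim to be compared.

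Butyrate is a short-chain fatty acid that bacteria of the colon make from dietary fibre and that the colonic epithelium burns as fuel. It also inhibits histone deacetylases, the enzymes that take acetyl groups off histone tails. In cultured colonic cells it is known for slowing division and for raising markers of differentiation. The study asked which genes respond to it in colonic epithelial cells, and 12 h is the middle of its 3 exposures.

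A signal is the deposited linear intensity of a probe set. A log2 change is the difference of the mean log2(signal + 32) of the 2 arrays of each time, given ± its standard error, and it understates changes of signals near or below 32. A gene was called higher or lower at a Benjamini-Hochberg adjusted p under 0.05 in limma, in a fit of all 8 arrays. The replicate numbers in the labels did not enter this fit. Whether the 2 arrays of each time are from independent cultures is not said in the labels. The p-values therefore reflect no more than array-to-array spread, which may be technical. No array of untreated cells at 12 h was analysed here, so butyrate and time in culture cannot be told apart. Nor can fewer cells of a kind and less RNA per cell be told apart in RNA from a whole culture.

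The arrays were alike in scale, with a trimmed mean signal of 500.2 on each and medians of 140.1 to 152.8. The 2 arrays of a time correlated at r = 0.979 to 0.982 over probe sets. Epithelial markers were bright: Krt8 had signals of 8968 and 9694 at 0 h and Epcam 5001 and 3861. Several defining genes of intestinal cells were not. The brush border protein gene Vil1 gave 21.5 and 40.7 at 0 h and 25.8 and 3.80 at 12 h, and the homeobox gene Cdx1 gave 2.70 and 5.20 at 0 h and 4.60 and 5.60 at 12 h. Among 14 genes of absorptive colonocytes on the array, 3 passed the filter (Car2, Ceacam1 and Krt20), and the others, Slc26a3, Car1 and Aqp8 among them, were dim on all arrays. Markers of other cell types were low: 0 of 11 endothelial, 3 of 17 immune and 3 of 15 fibroblast and smooth muscle genes passed. The summed signal of the fibroblast and smooth muscle list was 638.2 and 802.5 at 0 h and 926.2 and 829.9 at 12 h. Within it Vim, the mesenchymal intermediate filament gene, rose from 6.80 and 8.20 to 100.7 and 103. Cnn1, a smooth muscle calponin, rose from 15 and 16.6 to 88.5 and 77.3. Both genes were below the median of all signals at 0 h and 12 h. They passed the filter through the 24 h arrays (314 and 318 for Vim, 155 and 211 for Cnn1). Col1a1, Dcn and Pdgfrb did not pass the filter. The part of such cells in the results was not tested.

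At 12 h, 1332 genes were higher than at 0 h (18.2% of those tested) and 1280 were lower (17.4%), so that 35.6% of the tested genes were called in one direction or the other. The arrays of the 2 times did not overlap for 5171 genes, or 70.5%. Lack of overlap noted below for named genes adds no support, since those genes were picked as called. Changes of at least 2-fold were called for 464 genes upward (6.32%) and 389 downward (5.3%). Above 8-fold, the called genes were Fos, Mmp10, Txnip, Ddit3 and Egr1 upward and Fst and Hmga2 downward. Between 4-fold and 8-fold there were 47 rises and 21 falls. The calls were spread over the range of brightness, from 37.4% of the dimmest 25% of the tested genes to 30.1% of the brightest. Of the tested genes, 527 had both 0 h arrays at or below the level of the filter and passed it through other arrays; 304 of these were called higher. Likewise 402 had both 12 h arrays that low, and 161 of them were called lower. The genes higher numbered 879 without the 0 h replicate 2 array and 886 without the 12 h replicate 2 array. The genes lower numbered 779 without the 0 h replicate 1 array, 845 without the 0 h replicate 2 array and 846 without the 12 h replicate 2 array.

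**Figure D1:**
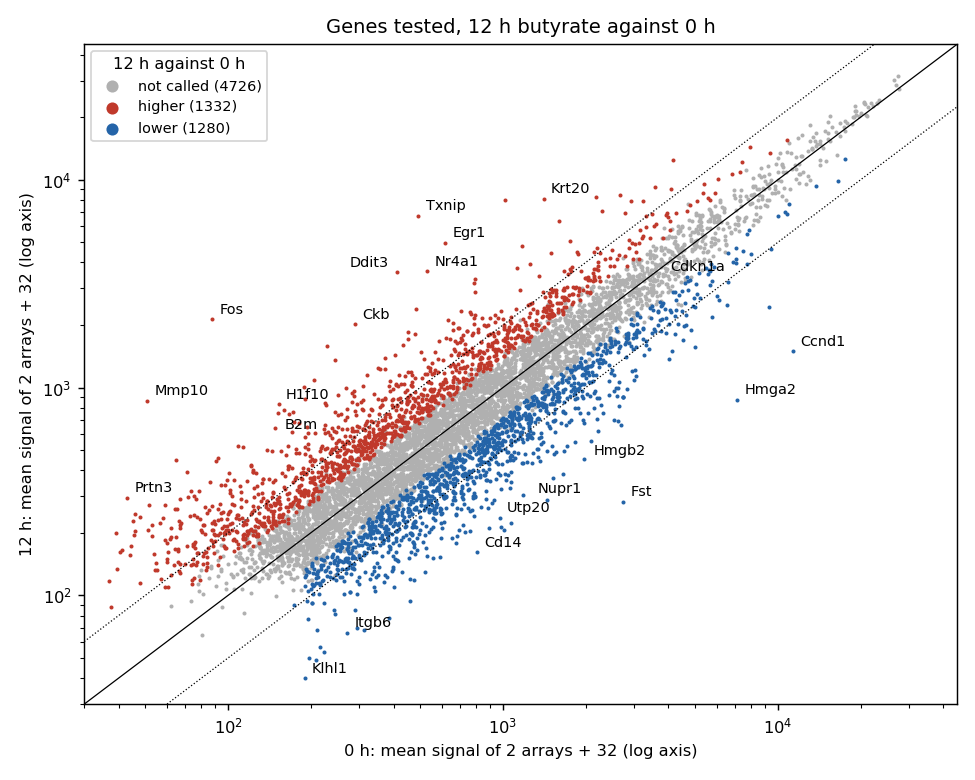
Mean signals plus 32 at 0 h (horizontal, log axis) and at 12 h (vertical, log axis) of the 7338 tested genes, each a point, with the line of equal signals and dotted lines at 2-fold. The 1332 genes called higher (red) and the 1280 called lower (blue) lie on both sides over the whole range, with Fos and Mmp10 farthest above the line and Fst and Hmga2 farthest below it.

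Transcription factors of the immediate early class were among the genes that rose most. These genes are switched on within minutes of growth factor or stress signals through MAP kinases, and many are switched off again. Fos, which pairs with Jun proteins to form AP-1, had signals of 43.8 and 67.6 on the 0 h arrays and 2425 and 1778 on the 12 h arrays, a log2 change of 4.6 ± 0.22 (limma, adjusted p = 3.6e-06). Egr1, a zinc finger factor, went from 646 and 521 to 5079 and 4807 (3.02 ± 0.16), and the orphan nuclear receptor Nr4a1 from 491 and 506 to 3668 and 3532 (2.78 ± 0.15). The lowest 12 h array of each of the 3 lay several-fold above its highest 0 h array. MAP kinase feedback genes rose with them: the phosphatase Dusp2 went from 206 and 143 to 1208 and 907 and Errfi1, an inhibitor of the EGF receptor, from 728 and 791 to 2766 and 2942 (log2 changes of 2.40 and 1.87). In all, 9 of the 19 tested immediate early and feedback genes were higher and 2 were lower, with a median log2 change of 0.50 beside 0.03 over all genes tested. The ones that were lower, Spry1 and Phlda1, lost the call without the filter and without either 12 h array or the 0 h replicate 2 array.

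The AP-1 family itself moved in both directions. Of 10 tested members, Fos, Batf3, Junb and Mafk were higher and Mafg, Fosl1 and Jdp2 were lower. The share called was 70%, beside 35.6% over all genes tested. Fos and Batf3 had both 0 h arrays at or below the level of the filter and were tested only because they were brighter later. Junb, a partner of Fos, rose from 682 and 671 to 1176 and 1449.5 (0.92 ± 0.18; adjusted p = 0.00331 in limma). Batf3 rose from 16.2 and 11, near the bottom of the scale, to 179 and 149. Fosl1, another Fos-type subunit, fell from 593 and 575 to 296 and 318 (-0.86 ± 0.16), and the small Maf protein Mafg from 705 and 451 to 279 and 246; another probe set of Mafg changed by -0.24. So within this family each 12 h array of Fos, Batf3 and Junb stood above both 0 h arrays, and each 12 h array of Fosl1 and Mafg below them. Jdp2 (-0.64) lost its call without the 0 h replicate 1 or the 12 h replicate 1 array.

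Mmp10, which encodes the secreted metalloproteinase stromelysin-2, was near the bottom of the scale at 0 h (19.9 and 17.6) and reached 960.3 and 703 at 12 h (4.07 ± 0.32, adjusted p = 3.04e-05 in limma; 3.42 to 4.59 over the alternatives). The promoters of Fos, Nr4a1 and Mmp10 are printed because they carry letters that early-response factors are known to read. All 3 genes are among the 20 that rose most, but several genes rose more than Nr4a1. The sequences are RefSeq's for assembly GRCm38.p6, 250 bases before to 50 after the annotated start, all on the plus strand: Fos at chr12:85473640-85473939, Nr4a1 at chr15:101266596-101266895 and Mmp10 at chr9:7502092-7502391. Capitals mark TGACG (the core of the cAMP response element, in either orientation, so CGTCA on the other strand; the full element TGACGTCA contains it), TGANTCA (the AP-1 site) and TATAAA (the TATA box).
Fos: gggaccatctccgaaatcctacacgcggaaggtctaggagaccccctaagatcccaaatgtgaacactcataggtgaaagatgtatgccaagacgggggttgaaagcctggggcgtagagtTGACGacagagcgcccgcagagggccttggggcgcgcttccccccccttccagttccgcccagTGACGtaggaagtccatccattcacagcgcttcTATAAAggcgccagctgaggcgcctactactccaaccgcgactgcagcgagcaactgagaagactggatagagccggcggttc
Nr4a1: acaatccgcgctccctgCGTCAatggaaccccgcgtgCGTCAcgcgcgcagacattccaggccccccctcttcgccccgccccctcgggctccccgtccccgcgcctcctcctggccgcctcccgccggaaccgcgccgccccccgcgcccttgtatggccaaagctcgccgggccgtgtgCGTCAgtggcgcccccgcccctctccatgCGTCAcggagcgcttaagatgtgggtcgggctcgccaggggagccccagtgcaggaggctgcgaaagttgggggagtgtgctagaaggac
Mmp10: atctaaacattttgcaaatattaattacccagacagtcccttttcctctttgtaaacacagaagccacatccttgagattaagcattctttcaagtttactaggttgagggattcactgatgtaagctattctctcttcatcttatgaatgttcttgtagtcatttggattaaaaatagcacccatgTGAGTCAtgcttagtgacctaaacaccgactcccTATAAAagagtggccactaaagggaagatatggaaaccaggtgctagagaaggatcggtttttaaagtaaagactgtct
Counted from the start, Fos had TGACG at -129 and -66 and TATAAA at -33, Nr4a1 had CGTCA at -233, -213, -69 and -40, and Mmp10 had TGAGTCA at -63 and TATAAA at -29. Of the 6041 tested genes with a RefSeq promoter, 34.8% held the TGACG core, 4.68% the AP-1 site and 6.57% TATAAA, on either strand. The TGACG core was in 37% of the promoters of genes called higher and in 29.5% of those called lower. Among genes changed by at least 2-fold it was in 31.9% of those higher and 23.8% of those lower. The AP-1 site was in 5.06% of the promoters of genes called higher and in 4.92% of those called lower. TATAAA stood in 10.6% of the promoters of genes higher by at least 2-fold and in 9.57% of those lower by as much. A match is a description of letters and not evidence of a bound factor.

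**Figure D2:**
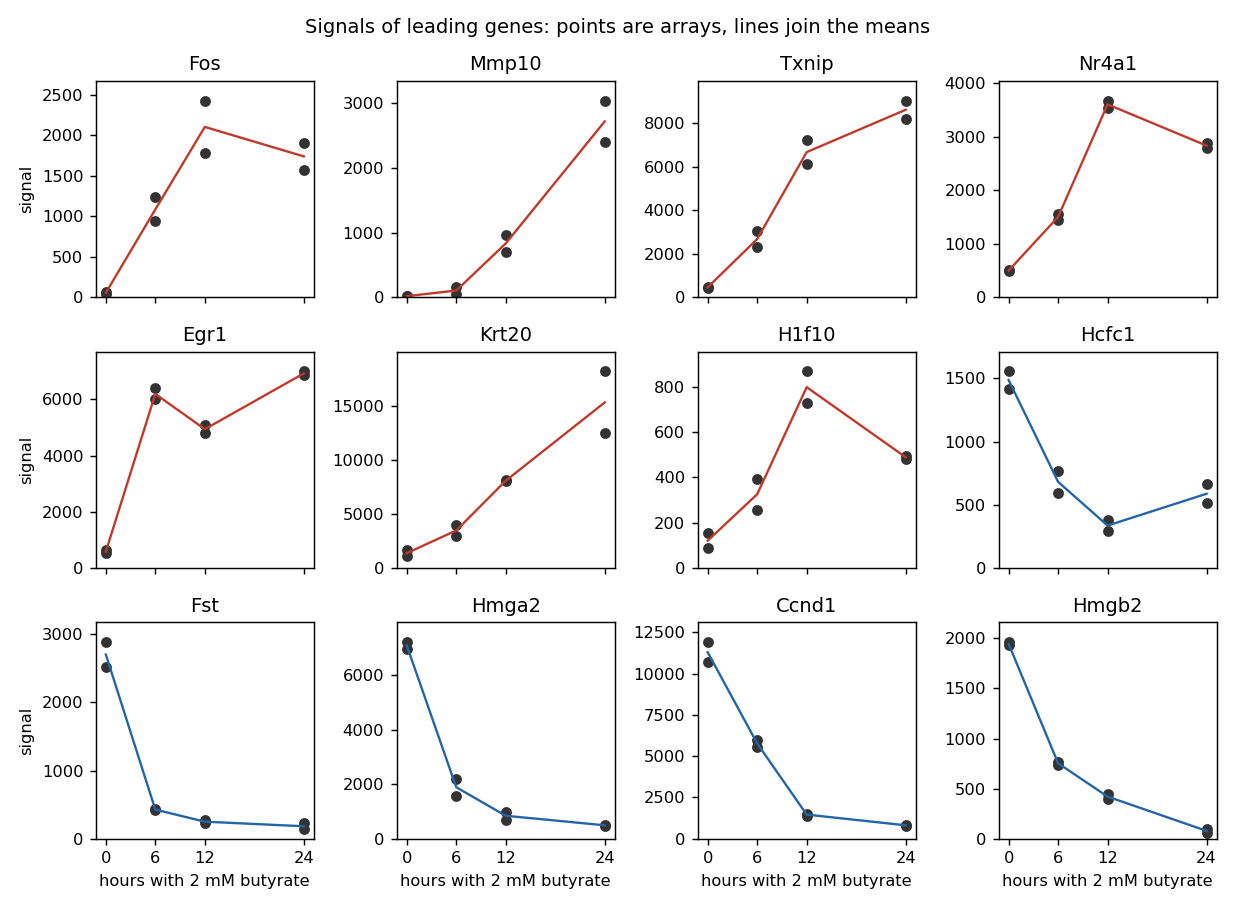
Signals of 12 leading genes (linear vertical axes from 0, each with its own scale) against hours with 2 mM butyrate. Points are the 2 arrays of each time and lines join the means; the red genes were higher and the blue genes lower at 12 h than at 0 h, and Hmgb2 fell again between 12 h and 24 h (log2 change -2.05).

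Genes for the chromatin machinery changed in both directions. Histone deacetylases remove acetyl groups and acetyltransferases add them. Of 9 tested deacetylases and sirtuins, 4 were higher and 1 was lower. Hdac1, a class I enzyme, had signals of 907 and 877 at 0 h and 1896 and 1683 at 12 h (0.98 ± 0.18; adjusted p = 0.00223 in limma). Hdac7, a class IIa enzyme, had 806 and 959.5 at 0 h and 245 and 249.9 at 12 h (-1.70 ± 0.17; adjusted p = 0.000109). For both, the arrays of the 2 times were well apart, in opposite directions. Hdac5, Sirt7 and Sirt2 were called higher, with log2 changes of 0.86, 0.82 and 0.63, and all 3 lost the call without the 12 h replicate 1 array, which left 1 gene of the list higher. Hdac3 (from 1144 and 1247 to 1468 and 1835) did not pass the test, with a log2 change of 0.45 ± 0.17 and a limma adjusted p of 0.0686, and was called with replicate number as a block, under the stricter filter and with a trended prior.

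The acetyltransferase and reader genes that were called were all lower. Of 17 tested genes for acetyltransferases and bromodomain proteins, which bind acetylated histones, 7 were lower and 0 higher (8 and 1 at an unadjusted p under 0.05 in limma; median log2 change -0.48); the number lower was 4 when any of the 4 arrays was left out, and with replicate number as a block 9 were lower and 1 higher. Kat2b, the acetyltransferase PCAF, went from 1063 and 852 to 406 and 391 (-1.19 ± 0.19), its paralogue Kat2a from 692 and 728 to 297 and 363 (-1.04 ± 0.16) and Baz1b from 2143 and 1541 to 881 and 1001 (-0.93 ± 0.19). Each of these 3 had both 12 h arrays below both 0 h arrays and kept its call in every alternative, but of the further probe sets of Kat2a one changed by 0.05 and the other by -0.71. Crebbp, the acetyltransferase CBP, was also called lower (-0.87), a call lost without the filter, without 0 h replicate 1 and without 12 h replicate 1. Among 20 tested subunits of the deacetylase complexes, 3 were lower and 0 higher (5 and 1 at an unadjusted p under 0.05 in limma; 5 lower with replicate number as a block). The share called, 15%, was below the 35.6% over all genes tested. Mbd3, of the NuRD complex, fell from 537 and 704 to 156 and 158 (-1.77 ± 0.18), and Mta1 of the same complex from 758 and 609 to 387 and 317 (-0.90 ± 0.18).

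Linker and variant histone genes were called in both directions, 4 higher and 3 lower of 9 tested. Linker histones bind the DNA between nucleosomes. H1f10 rose from 153 and 88 to 867 and 728 (2.47 ± 0.24) and H1f2 from 1552 and 1589 to 7171 and 5455 (1.97 ± 0.17). H2aw, a variant of histone H2A, rose from 249.7 and 399.7 to 1019 and 1383 (1.81 ± 0.25). In contrast to these, Macroh2a2, whose product is associated with silent chromatin, fell from 252 and 275 to 61.3 and 14.2 (-2.17 ± 0.36), with the 12 h arrays apart from each other but both below the 0 h arrays. Macroh2a1 (-0.53) and H2az2 (0.45) lost their calls whichever of the 4 arrays was left out.

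High mobility group proteins bend DNA and loosen chromatin. Hmga2, which is abundant in embryonic and tumour cells, had signals of 7206 and 6965 at 0 h and 989 and 698 at 12 h, a log2 change of -3.04 ± 0.21 (adjusted p = 1.74e-05 in limma). Hmgb2 fell from 1963 and 1929 to 393 and 449 (-2.13 ± 0.18) and Hmgb3 from 2321 and 2883 to 859 and 702 (-1.69 ± 0.19). All 3 genes called lower in this family fell by more than 2-fold. Tox4 and Hmg20b (0.61) were called higher, and 4 of the 8 tested genes were with replicate number as a block; only 1 was without the 0 h replicate 2 array or without the 12 h replicate 2 array. Tox4 (252 and 259.6, then 522 and 656) lost the call with its further probe set in its place. Among 20 tested genes of Polycomb complexes and DNA methylation, the largest fall was that of Bmi1, a subunit of Polycomb repressive complex 1, from 1864 and 1419 to 499 and 426 (-1.75 ± 0.21). Ezh1, a histone H3 methyltransferase of repressive complex 2, rose from 248.9 and 227 to 478 and 458 (0.89 ± 0.17). Hcfc1, a cofactor that tethers several chromatin complexes, fell from 1419.7 and 1556 to 294 and 379 (-2.05 ± 0.20; -1.68 and -1.12 for its further probe sets).

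**Figure D3:**
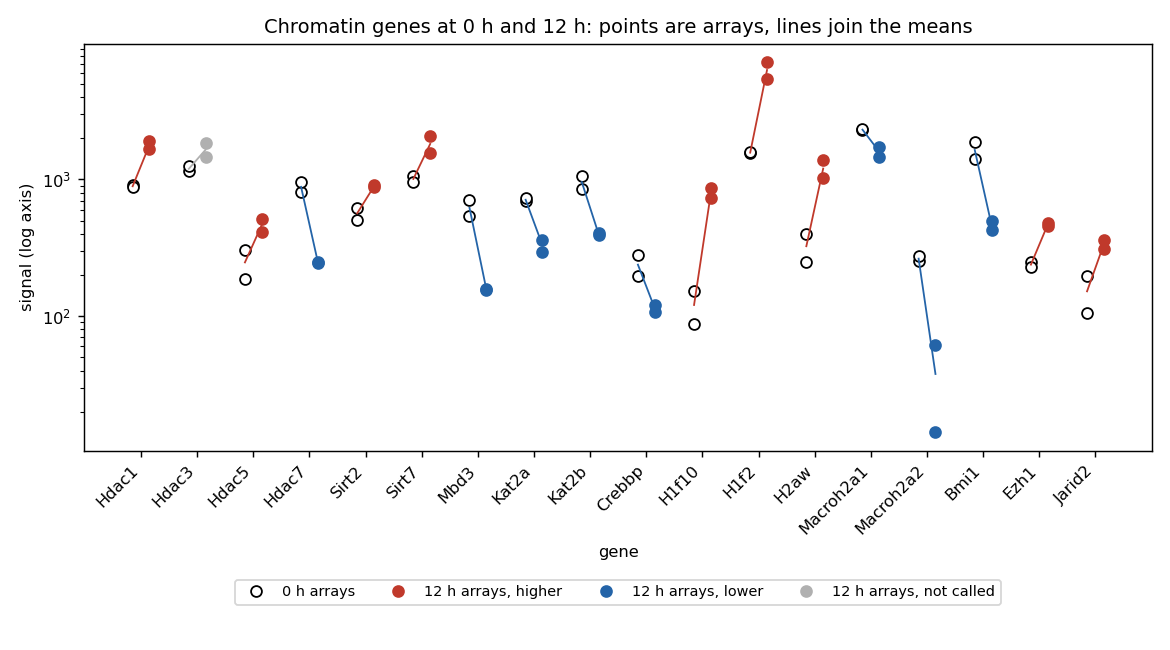
Signals (vertical, log axis) of 18 chromatin genes on the 2 arrays at 0 h (open circles) and the 2 at 12 h (filled circles), with lines joining the means. Red genes were called higher, blue genes lower, and Hdac3 (grey) did not pass the test.

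The G1 cyclin gene Ccnd1 had one of the largest falls. Cyclin D1 activates Cdk4 and Cdk6 to let cells enter S phase. Ccnd1 went from 11903 and 10680.1 to 1405 and 1524, a log2 change of -2.92 ± 0.15 (adjusted p = 3.6e-06 in limma), and its partner Cdk6 went from 165 and 176 to 59 and 60.7 (-1.14 ± 0.15). Rb1, the retinoblastoma protein that cyclin D1 kinases inactivate, rose from 228 and 210.2 to 700.2 and 527 (1.35 ± 0.17), and Ccnh, a subunit of the CDK-activating kinase, from 877 and 1052 to 1905 and 2315. None of these 4 had overlapping arrays, nor did 70.5% of all genes tested. Myc fell from 1077 and 1134 to 431 and 468 (-1.24 ± 0.19), and Mxi1, an antagonist of MYC, rose from 832 and 561 to 1821 and 1346 (1.16 ± 0.22). E2f4 (-0.85) and E2f5 (0.73) were called in opposite directions and each lost the call without the filter and without 2 of the 4 arrays in turn, among them 12 h replicate 2 for E2f4 and 12 h replicate 1 for E2f5.

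CDK inhibitors did not move as a block. Cdkn1a, which encodes p21, had signals of 3717 and 3877 at 0 h and 3898 and 2908 at 12 h. The arrays overlapped, and the log2 change was -0.17 ± 0.18, with a 95% interval of -0.57 to 0.22 and a limma adjusted p of 0.485; without the 12 h replicate 2 array it was 0.04, and a further probe set gave 0.22. Cdkn2d, which encodes p19INK4d, rose from 437 and 342 to 891 and 823 (1.08 ± 0.19), and Cdkn1c (1.03) was called but lost the call without the filter, without 0 h replicate 1 and without 12 h replicate 1. The growth arrest gene Gadd45g rose from 140.3 and 199 to 431 and 353 and the zinc finger gene Plagl1 from 17.6 and 9.0 to 255 and 137. Of the p53 targets, Phlda3 fell from 2769 and 2381 to 790.3 and 964 (-1.52 ± 0.17) and Zmat3 from 3119 and 2707 to 1125 and 1207 (-1.29 ± 0.19). Together, 10 of 25 tested genes of this list were higher and 3 lower; the number higher was 5 without the 0 h replicate 2 array and 4 without the 12 h replicate 1 array.

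Among genes of DNA replication and mitosis, calls were mostly lower. Of 46 tested replication genes, 22 were lower and 2 higher, with a median log2 change of -0.42. Thymidine kinase Tk1 went from 2525 and 2669.8 to 530 and 782 (-1.96 ± 0.19), the chromatin remodeller Hells from 623 and 663 to 175 and 117 (-1.94 ± 0.22) and the S phase kinase subunit Dbf4 from 2697 and 2728 to 929 and 814 (-1.61 ± 0.16). For all 3 the brighter 12 h array was below the dimmer 0 h array. The number lower was 12 without the 0 h replicate 2 array and 14 without the 12 h replicate 1 array. The replication genes called higher, Prim2 and Orc4, lost the call under at least 1 alternative.

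Of 54 tested genes of mitosis and G2/M, 29 were lower and 1 was higher, with a median log2 change of -0.66; 20 to 25 were lower when 1 of the 4 arrays was left out. Cdc20, an activator of the anaphase-promoting complex, had signals of 2185 and 2393 at 0 h and 564 and 885 at 12 h (-1.65 ± 0.28). Cenpa, the histone H3 variant of centromeres, went from 1814 and 2066 to 534 and 752 (-1.56 ± 0.19), and the spindle kinase Aurka from 1231 and 1384 to 387 and 565 (-1.42 ± 0.21). Ccna2, cyclin A2, went from 2891 and 3032 to 1088 and 1034. All 4 stood lower on both 12 h arrays (of all genes tested, 70.5% did not overlap, in either direction). The gene that was higher was Pttg1 (3146 and 2544 at 0 h, 5332 and 4916 at 12 h), for securin, which restrains separase, and it lost the call without the 0 h replicate 2 array; its further probe set, at 0.63, was not called.

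The promoters of Cdc20, Cenpa and Aurka are printed because the mitotic list carries its own pattern of letters. Capitals mark CCAAT, read by NF-Y, and TTTGAA, the cell cycle genes homology region (CHR), each on either strand, so ATTGG is CCAAT on the other strand. The windows, from RefSeq for GRCm38.p6, are chr4:118437294-118437593 (minus strand), chr5:30666636-30666935 (plus strand) and chr2:172370521-172370820 (minus strand).
Cdc20: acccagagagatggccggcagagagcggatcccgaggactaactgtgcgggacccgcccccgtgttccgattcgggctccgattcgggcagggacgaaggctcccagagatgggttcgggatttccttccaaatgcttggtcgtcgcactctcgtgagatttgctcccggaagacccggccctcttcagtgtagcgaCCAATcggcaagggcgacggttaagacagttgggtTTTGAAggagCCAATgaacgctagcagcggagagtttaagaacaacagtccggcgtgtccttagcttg
Cenpa: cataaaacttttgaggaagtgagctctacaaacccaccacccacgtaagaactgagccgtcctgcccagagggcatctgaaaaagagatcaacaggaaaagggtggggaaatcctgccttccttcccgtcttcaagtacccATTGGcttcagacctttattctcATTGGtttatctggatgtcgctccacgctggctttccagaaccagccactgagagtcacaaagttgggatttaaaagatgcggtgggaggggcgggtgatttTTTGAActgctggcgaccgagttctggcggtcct
Aurka: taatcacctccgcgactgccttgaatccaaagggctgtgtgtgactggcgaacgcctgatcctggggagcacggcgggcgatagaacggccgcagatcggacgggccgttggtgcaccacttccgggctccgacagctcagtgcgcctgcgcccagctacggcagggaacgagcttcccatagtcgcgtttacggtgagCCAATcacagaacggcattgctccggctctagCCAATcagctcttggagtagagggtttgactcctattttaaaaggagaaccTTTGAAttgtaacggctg
In Cdc20, CCAAT stood at -53 and -8 from the start and TTTGAA at -18; in Cenpa, ATTGG at -109 and -86 and TTTGAA at 17; in Aurka, CCAAT at -51 and -19 and TTTGAA at 33. Among tested mitosis and G2/M genes, 31 of 46 promoters (67.4%) held the CHR letters, beside 11.3% of all 6041 promoters. The same letters were in 15.2% of the promoters of genes called lower and in 7.27% of those called higher. CCAAT was in 73.9% of the mitotic promoters, beside 39% of all, and in 72.2% of those of 18 cilium genes. Unlike the CHR letters, it was rarer in promoters of genes called lower (35.1%) than in those of genes called higher (42.8%). The E2F site TTTNGCGC was in 20.5% of 39 replication promoters, beside 2.86% of all. Promoters of the mitotic genes were somewhat poorer in G and C, with a median of 58.3% against 61.7%. No test was made of these shares.

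**Figure D4:**
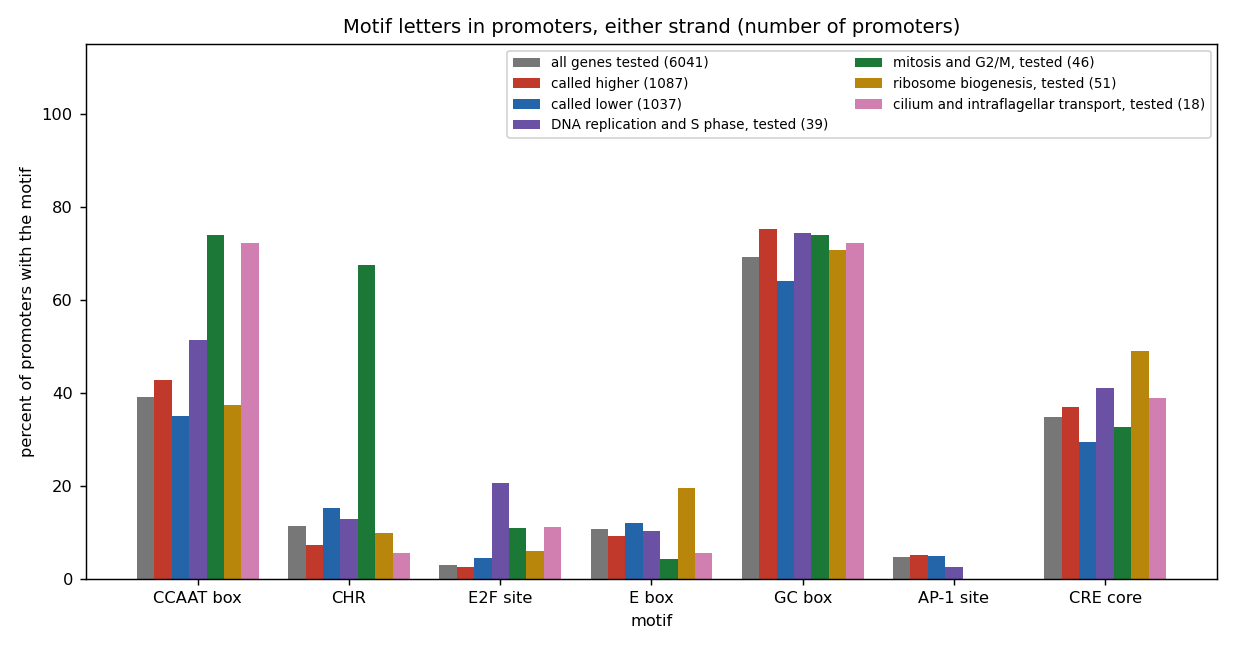
Percent of promoters (vertical) that hold the letters of each motif (horizontal) on either strand, for all tested genes, genes called higher or lower, and 4 gene lists, with the number of promoters in the key. The CHR bar of the mitotic list (67.4%) stands above that of all genes (11.3%), and the AP-1 bars of genes called higher (5.06%) and lower (4.92%) are near that of all genes (4.68%).

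In lists of the nucleolus, nuclear transport and splicing a part of the genes was called lower, and 0 members were called higher in limma. At an unadjusted p under 0.05 in limma, 1 gene of ribosome biogenesis was higher and none of the transport, pore and splicing lists. With another choice of probe set per gene, 1 gene of ribosome biogenesis was called higher. The share called lower was 41.9% for ribosome biogenesis and 34.6% for import and export. It was 29.2% for the nuclear pore and 34.7% for splicing. Over all genes tested, 17.4% were lower and 35.6% were called in either direction. Ribosome biogenesis had 26 of 62 tested genes lower (median -0.43), or 16 without the 0 h replicate 1 array and 16 without the 12 h replicate 1 array. Utp20, a component of the small subunit processome, went from 979.6 and 900.4 to 198 and 212 (-2.04 ± 0.16), the nucleolar GTPase gene Gnl3 from 1349 and 2249 to 502 and 523 (-1.70 ± 0.22) and Gar1, of the pseudouridylation complex, from 1388 and 1432 to 541 and 385 (-1.56 ± 0.19). Of the ribosomal proteins themselves, 0 of 41 were higher and 1 lower, also at an unadjusted p under 0.05 in limma, with a median of 0.06. Of 26 import and export genes, 9 were lower, or 4 without the 0 h replicate 1 array and 4 without the 12 h replicate 1 array. Kpnb1, the import receptor importin beta 1, went from 2258 and 2063 to 735 and 610.4 (-1.64 ± 0.16) and Xpo1, the main protein export receptor, from 3251 and 3304 to 1697 and 1591 (-0.98 ± 0.16). Nuclear pore genes had 7 of 24 lower (or 4 without the 12 h replicate 2 array), led by Nup62 (1699 and 1314 against 743 and 581). The export and import receptors and Nup62 all had lower signals on both 12 h arrays.

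Splicing factor genes had 17 of 49 lower with a median of -0.42. That count depended on single arrays: it was 8 without the 0 h replicate 1 array, 5 without the 0 h replicate 2 array and 8 without the 12 h replicate 2 array, and 7 with no filter on low signals. The leading members kept their calls in every alternative. Rbmx, an RNA-binding protein of the spliceosome, went from 813 and 637 to 129 and 218 (-1.91 ± 0.25) and Hnrnpu from 6467 and 6558 to 2326 and 2606 (-1.39 ± 0.17; -0.83 and -1.14 for its further probe sets).

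The integrated stress response raises a set of genes through ATF4 when translation is restrained. Of 29 tested genes, 6 were higher and 6 lower, near the 18.2% and 17.4% over all genes tested. Ddit3, which encodes the transcription factor CHOP, had signals of 310 and 447 at 0 h and 3168 and 3939.5 at 12 h (3.14 ± 0.22), and Atf3 went from 151 and 165 to 870.1 and 824 (2.21 ± 0.16). Chac1, a glutathione-degrading enzyme, rose from 476 and 469 to 932 and 859. Yet Nupr1, a stress-induced nuclear protein, fell from 1618 and 1623 to 332 and 376 (-2.10 ± 0.15), and the amino acid transporter Slc38a2 from 3881 and 3544 to 2013 and 1669 (-1.0 ± 0.17). The arrays of the 2 times did not overlap for any of these 5 genes, nor for 70.5% of all genes tested. The endoplasmic reticulum chaperone list had 6 of 40 higher and 1 lower (2 lower with replicate number as a block). Its share called, 17.5%, was below the 35.6% over all genes tested. The number higher was 3 without the 0 h replicate 1 array, 3 without the 12 h replicate 1 array and 3 without the 12 h replicate 2 array.

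Of the 35 tested autophagy genes, 15 were called higher and 0 lower (18 and 0 at an unadjusted p under 0.05 in limma; median 0.43; 11 or 12 higher when 1 of the 4 arrays was left out). Atg12, a ubiquitin-like protein of the autophagosome, went from 749 and 430.1 to 1813 and 1579 (1.52 ± 0.25), Atg101, of the initiating kinase complex, from 381 and 485 to 1118 and 1123 (1.32 ± 0.19) and Gabarapl2 from 1755 and 1740.2 to 3765 and 3806 (1.1 ± 0.16). Bnip3, a mitochondrial autophagy receptor, went from 360.2 and 277 to 1218 and 1189.9 (1.83 ± 0.16). All 4 were brighter on both 12 h arrays. Of 52 lysosomal genes, 14 were higher and 3 lower, a share of 32.7% beside 35.6% over all genes tested. The number higher was 8 without the 0 h replicate 1 array, 9 without the 12 h replicate 1 array and 8 without the 12 h replicate 2 array. None of the called lysosomal genes changed by 2-fold, and those lower (Scarb2, Galc and Cln3) each lost the call without the 12 h replicate 2 array or the 12 h replicate 1 array. The proteasome, the other route of protein breakdown, had 1 of 38 genes called, or 2 without the 12 h replicate 1 array and 5 higher with replicate number as a block.

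Metal handling genes were called 9 higher and 3 lower of 24 tested. The metallothioneins, small proteins that bind zinc and copper, had the largest rises: Mt1 from 2549.7 and 1739 to 7899 and 8568 (1.95 ± 0.20) and Mt2 from 892 and 619 to 3255 and 3082 (2.04 ± 0.20). Their sequences are alike, and their probe sets may share signal. The copper exporter Atp7a rose from 232 and 246 to 592 and 606 (1.22 ± 0.26) and the copper chaperone Atox1 from 3468 and 3072 to 6187 and 7194 (1.02 ± 0.18). The number higher was 5 without the 12 h replicate 1 array. Of those lower, Cp and Slc39a14 lost the call without the 0 h replicate 2 or the 12 h replicate 2 array, and Slc39a3 did whichever of the 4 was left out, so that the number lower was 1 without the 0 h replicate 1 array, 0 without the 0 h replicate 2 array and 0 without the 12 h replicate 2 array.

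In metabolism, Txnip stood first. Its product binds thioredoxin and restrains glucose uptake. Txnip had signals of 498 and 424 at 0 h and 6142 and 7215 at 12 h (3.77 ± 0.18, 13.6-fold; adjusted p = 3.6e-06 in limma). Glycolysis genes were called 9 higher and 2 lower of 20, and the number higher was 5 without the 12 h replicate 1 array. The other gene lower besides Hk2, Pfkl (-0.48), lost the call whichever of the 4 arrays was left out. The phosphofructokinase isoform Pfkp rose from 67 and 53 to 430.3 and 422 (2.32 ± 0.16) and the glucose transporter Slc2a1 from 622 and 800.4 to 1811 and 1884 (1.35 ± 0.17), while hexokinase 2 (Hk2) fell from 1822 and 1732 to 1049.8 and 746 (-0.98 ± 0.20). Of the 9 genes higher, 4 had both 0 h arrays at or below the filter's level and so passed the filter through later times. The hypoxia-responsive gene Ndrg1 rose from 915 and 605 to 3408 and 3169.6 (2.10 ± 0.19). In these genes too, the 12 h arrays lay wholly on one side of the 0 h arrays.

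Fatty acid oxidation is the path by which colonocytes burn butyrate. Of 30 tested genes of oxidation and ketogenesis, 13 were higher and 2 lower (median 0.34; 9 to 11 higher when 1 of the 4 arrays was left out). Cpt1a, the mitochondrial entry step of long-chain fatty acids and not of butyrate, went from 488 and 509 to 1179.8 and 1075 (1.13 ± 0.17). Hadhb, a subunit of the trifunctional protein, went from 2011 and 1473 to 3466 and 3744 (1.05 ± 0.19). Etfdh, which passes their electrons to ubiquinone, went from 829 and 729 to 1774 and 1849 (1.19 ± 0.16), and Acss2, a cytosolic and nuclear acetyl-CoA synthetase, from 242 and 276 to 658 and 752 (1.34 ± 0.17). Each of the 4 was higher on both 12 h arrays. The acyl-CoA synthetase Acsl5 was lower, at 1523 and 1956 and then 633 and 696 (-1.34 ± 0.17). Eci1, an isomerase of unsaturated chains, was the other gene lower (-0.65), and it lost the call without the 0 h replicate 2 or the 12 h replicate 1 array. In the respiratory chain, 3 of 66 genes were higher (7 with replicate number as a block) and 2 lower, or 0 lower without the 0 h replicate 1 array and without the 12 h replicate 1 array. Slc16a1, the monocarboxylate transporter through which butyrate enters, had 3443 and 3349 at 0 h and 3358 and 2891 at 12 h (95% interval of the log2 change -0.47 to 0.22; limma adjusted p = 0.573). Its arrays overlapped.

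The transporter gene Abcg2, an efflux pump, rose from 184 and 256 to 771 and 649 (1.57 ± 0.28). Enzymes of creatine, glutamine and other amino acids were called 10 higher and 0 lower of 25 (11 and 1 at an unadjusted p under 0.05 in limma), 7 to 9 higher when 1 of the 4 arrays was left out. The brain-type creatine kinase Ckb led them, from 288 and 228 to 2148 and 1826 (2.80 ± 0.17), followed by glutamine synthetase (Glul) from 412 and 375 to 924 and 1099 (1.29 ± 0.17; 0.66 for its further probe set). The genes of this list that were higher include enzymes of separate pathways, among them Got1 of the malate-aspartate shuttle (0.99) and the alanine transaminase Gpt2 (0.89; 0.30 and 1.04 for its further probe sets). Of 8 tested polyamine genes, 4 were higher and 1 lower. The breakdown enzyme spermidine/spermine acetyltransferase (Sat1) rose from 2883 and 2905 to 7603 and 8221 (1.44 ± 0.15) and arginase 2 (Arg2), which makes the polyamine precursor ornithine, from 101.4 and 132 to 588 and 629 (2.11 ± 0.17). Spermidine synthase (Srm) fell from 1386 and 1633 to 615 and 547 (-1.33 ± 0.16). Gch1, the first enzyme of tetrahydrobiopterin synthesis, rose from 181 and 133 to 930.1 and 1026 (2.43 ± 0.19).

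On the epithelial side, Krt20, a keratin of differentiated intestinal cells, had signals of 1119 and 1634 at 0 h and 8086 and 8046 at 12 h (2.55 ± 0.24; adjusted p = 7.52e-05 in limma). Krt80 fell from 821 and 892 to 159.9 and 197 (-2.08 ± 0.19). Cdx2, the intestinal homeobox factor, was called lower, at 512 and 458 and then 367 and 233 (-0.67 ± 0.20; adjusted p = 0.0251), a call lost without the filter and without either 0 h array or the 12 h replicate 2 array. Elf3, an epithelial ETS factor, rose from 440.4 and 525 to 1168 and 1509.5 (1.41 ± 0.23). Of 13 tested epithelial markers, 4 were higher and 2 lower. Apart from Krt20 and Elf3, those called (Krt8, Cdh1, Cdx2 and Cldn3) each lost the call under at least 1 alternative, and the number higher was 2 without the 0 h replicate 1 array, 2 without the 0 h replicate 2 array and 2 without the 12 h replicate 1 array. The summed signal of the 14 colonocyte markers was 6597 and 6925 at 0 h and 13246 and 13172 at 12 h. Most of it was Car2 at 0 h (5053 and 4873) and Krt20 at 12 h, when Car2 had 4668 and 4627. Gsn, the actin-severing protein gelsolin, overlapped between times (4516 and 6674, then 6175 and 8187; limma adjusted p = 0.293).

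Adhesion and matrix-degrading genes moved in both directions. Integrins anchor cells to matrix, and 4 of 10 tested subunit genes were lower and 0 higher (4 and 1 at an unadjusted p under 0.05 in limma), with Itga3, the smallest of these falls (-0.61), not called under every alternative. Itgb6 fell from 207 and 273 to 34 and 34.3 (-2.03 ± 0.19), the leukocyte-type subunit Itgb2 from 1638 and 1724 to 505 and 481 (-1.71 ± 0.16) and the hemidesmosome subunit Itgb4 from 603 and 509 to 234 and 226 (-1.16 ± 0.19). Among metalloproteinases, Mmp14, which is anchored in the membrane, fell from 864 and 1083 to 143 and 205 (-2.29 ± 0.22), Adamts5 from 2399.5 and 2926 to 650.3 and 601 (-2.03 ± 0.17) and Adam12 from 564 and 556 to 104 and 138 (-1.96 ± 0.19). Further probe sets of Itgb6 and Adam12 changed by -0.95 and -0.89. These falls stand beside the rise of Mmp10. Adam8 rose from 113 and 86.1 to 256 and 250.4 (1.12 ± 0.16). Klk10, a kallikrein protease, fell from 462 and 393 to 52.1 and 71.8 (-2.29 ± 0.17), and Plet1, a surface protein of epithelial progenitors, rose from 7.90 and 20.1 to 249.5 and 181 (2.43 ± 0.26).

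The largest fall of all was that of Fst, whose product follistatin binds and blocks activin. Fst had signals of 2519 and 2882 at 0 h and 232 and 269 at 12 h, a log2 change of -3.27 ± 0.20 (adjusted p = 1e-05 in limma). Fstl3, a related activin-binding protein, moved the other way, from 13 and 28.6 to 194 and 128 (1.86 ± 0.21). The type II TGF-beta receptor Tgfbr2 fell from 4336 and 3662 to 1379 and 1291 (-1.56 ± 0.17) and the repressor of its signalling Tgif1 from 983 and 1085 to 436 and 451 (-1.16 ± 0.16). The type I activin receptor Acvr1b rose from 348 and 358 to 791 and 635 (0.94 ± 0.17) and the ligand Bmp4 from 53.3 and 33.2 to 191 and 230.1 (1.70 ± 0.19). In the whole list, 4 of 27 tested genes were higher and 7 lower, the latter 4 without the 0 h replicate 1 array. Of those higher, Fstl3 and Bmp4 had both 0 h arrays at or below the level of the filter and passed it through other arrays. The share called was 40.7%, beside 35.6% over all genes tested. The ligands Bmp4 and Bmp7 were among those higher (the further probe sets of Bmp7, at 0.45 and 0.48, were not called), and receptors were found on both sides. Ccn1, a secreted matricellular protein, rose from 1013 and 961 to 7531 and 8413 (2.97 ± 0.16).

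Genes of MHC class I presentation, which shows peptides at the cell surface, were mostly higher. Of 15 on the array, 6 passed the filter, and 4 of those were higher and 1 lower, the latter (Psmb10, -0.76) not called without the filter, without either 0 h array or without the 12 h replicate 1 array. B2m, the light chain, had signals of 119.6 and 119.9 at 0 h and 748 and 699.7 at 12 h (2.32 ± 0.19; adjusted p = 4.14e-05 in limma). The heavy chain H2-K1 went from 485 and 416 to 2678 and 2025 (2.29 ± 0.21) and H2-D1 from 833 and 1350.1 to 4079.8 and 3356 (1.77 ± 0.25). Both heavy chains and B2m were several-fold brighter on each 12 h array. B2m passed the filter through later arrays only. Heavy chain genes are near-identical in parts, so their probe sets may share signal, and the further probe sets of H2-D1 changed by 0.61 (not called), 1.61 and 2.00.

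Innate immune genes did not follow one direction. Of 28 tested interferon-induced genes and sensors, 8 were higher and 9 lower, and the number higher was 5 without the 12 h replicate 2 array. Of those higher, 3 had both 0 h arrays at or below the level of the filter. Of those lower, 4 had both 12 h arrays that low, so these genes passed the filter through other arrays. Tlr3, a receptor of double-stranded RNA, fell from 594 and 382 to 78.7 and 117 (-1.99 ± 0.25) and Ifit3 from 294 and 387 to 74.4 and 113 (-1.57 ± 0.31). Cd14, the lipopolysaccharide co-receptor, fell from 817 and 722 to 92 and 167 (-2.35 ± 0.24). Of 18 chemokine, cytokine and NF-kB genes, 4 were higher and 8 lower, and the number lower was 4 without the 0 h replicate 1 array and 5 without the 12 h replicate 2 array. Here 2 of those higher had both 0 h arrays at or below the level of the filter, and 4 of those lower had both 12 h arrays that low. Nfkbiz, a nuclear regulator of NF-kB, rose from 218 and 257 to 1171 and 755 (1.86 ± 0.23), whereas the cytokine Lif fell from 275 and 261 to 79.9 and 100.8 (-1.30 ± 0.22). Prtn3, known as a neutrophil protease, went from 9.0 and 12.8 to 237 and 289 (2.78 ± 0.18), while of the 17 immune markers 14, among them Ptprc and Cd4, did not pass the filter. Of the 3 that passed, Cd74 was called higher (61.1 and 107, then 163 and 216), Csf1r was called lower (868 and 599, then 309 and 369) and Cd68 was not called.

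Microtubule and cilium genes that were called were mostly higher. Of 35 tubulin and microtubule genes tested, 15 were higher and 3 lower (median 0.42). Without 1 of the 4 arrays, 10 to 13 were higher and 1 or 2 lower. The share called was 51.4%, beside 35.6% over all genes tested. Of the 15 higher, 4 had both 0 h arrays at or below the level of the filter and passed it through other arrays. Mapre2, a protein that binds growing microtubule ends, had 188 and 239 at 0 h and 1255 and 1407 at 12 h (2.48 ± 0.19), with its other probe sets at log2 changes of 0.82 to 1.63, while its paralogue Mapre1 fell from 4437 and 3985 to 2280.4 and 2056 (-0.95 ± 0.16). The beta tubulin Tubb2a rose from 64.4 and 52.1 to 395 and 430.2 (2.30 ± 0.16) and Tubb2b from 485 and 470.1 to 1081 and 1075 (1.12 ± 0.15), a pair of near-identical genes. Intraflagellar transport carries cargo along cilia, and 11 of 21 tested cilium genes were higher (median 0.66); 8 or 9 were when 1 of the 4 arrays was left out. Arl3, a ciliary GTPase, went from 762 and 701 to 2159 and 2315 (1.57 ± 0.17), Ift22 from 537 and 487 to 1162 and 1249 (1.19 ± 0.15) and Bbs9 from 80.8 and 41.9 to 207 and 279.6 (1.58 ± 0.24). The gene called lower, Ofd1 (-0.52), lost the call whichever of the 4 arrays was left out. Ahi1, a gene of the ciliary transition zone, rose from 40.8 and 37.3 to 383 and 341 (2.47 ± 0.27).

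Neuronal genes were called 14 higher and 1 lower of 23 that passed the filter, out of 53 on the array. Of those higher, 9 had both 0 h arrays at or below the level of the filter, so they were tested only because they were brighter later, and the count says little. The number higher was 8 without the 12 h replicate 1 array. Rab3a, a GTPase of secretory vesicles, went from 52.5 and 26.5 to 283 and 250 (2.08 ± 0.20), and Rab3d, of the same family, from 266 and 209.9 to 809 and 705 (1.55 ± 0.18). The neural adhesion molecule L1cam fell from 1401 and 1044 to 592 and 586 (-1.0 ± 0.21).

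Nuclear receptor genes were called in both directions, with 8 lower and 2 higher of 19 tested. Of those lower, 3 had both 12 h arrays at or below the level of the filter and passed it through other arrays. Nr2f2, an orphan receptor also called COUP-TFII, fell from 333 and 327 to 143 and 103 (-1.23 ± 0.19), the related Nr2f6 from 1735 and 1255 to 564 and 748 (-1.15 ± 0.20; -0.63 for its further probe set) and the retinoic acid receptor Rarg from 527 and 506 to 284 and 166 (-1.13 ± 0.22). Nr4a1, described above, was the larger of the rises. Of 15 circadian clock genes, 6 were higher and 4 lower, with 4 of those higher at or below the level of the filter on both 0 h arrays. The core factor Arntl rose from 171 and 215 to 501 and 453 (1.18 ± 0.18), whereas the clock outputs Bhlhe40 and Dbp fell, from 1537 and 1161 to 455 and 548 (-1.36 ± 0.21) and from 298 and 245 to 102 and 130.2 (-1.04 ± 0.17). Usp2, a deubiquitinase under clock control, rose from 35.1 and 18.8 to 271 and 211 (2.22 ± 0.28).

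The remaining leading genes came from no single list. Among rises they were Cotl1, an actin-binding protein (log2 change 2.83; 0.93 to 2.28 for its other probe sets), the receptor-modifying protein gene Ramp3 (2.80), the relaxin-family gene Insl6 (2.37) and Entpd2, a surface enzyme that cuts extracellular ATP (2.35). Insl6, like Prtn3, Ahi1 and Plet1, had 0 h signals of at most 40.8, where the size of the change depends on the pseudocount. Among falls they were Tacc2 (-2.34), a centrosomal protein, Cutal (-2.34), the phosphatase gene Ptprb (-2.26), Klhl1 (-2.25), Samd10 (-2.23), the cytochrome c oxidase assembly factor Sco2 (-2.20), the lysosome-positioning gene Borcs7 (-2.11) and the zinc finger gene Maz (-2.06). All 40 of the largest changes kept their call under every alternative, and of all 410 named genes that were called, 275 did. The 40 were picked for their size among genes called in these same arrays, so their stability is no independent support.

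Growth and cell fate signalling pathways were called on both sides. In the Hippo pathway, where YAP drives growth genes with TEAD factors, Yap1 itself fell from 1891 and 1535 to 696 and 600.3 (-1.35 ± 0.24) and Ajuba, a positive regulator, from 2165 and 2189 to 675 and 497 (-1.85 ± 0.20). The matricellular YAP target Ccn2 rose from 3901 and 4316 to 12608 and 12209.6 (1.59 ± 0.17), as Ccn1 did. In the list of CCN proteins and YAP-TEAD genes as a whole, 3 of 18 tested genes were higher and 4 lower, with a median log2 change of -0.25. The share called, 38.9%, was near the 35.6% over all genes tested. The number lower was 2 without the 0 h replicate 2 array and 2 without the 12 h replicate 2 array. Of 23 tested Wnt genes, 2 were higher and 7 lower, a share of 39.1% beside 35.6% over all genes tested. The number lower was 4 without the 0 h replicate 1 array and 3 without the 12 h replicate 2 array. The ligand Wnt5a fell from 307 and 305 to 96.6 and 58.9 (-1.65 ± 0.25; -0.94 for its further probe set), Wnt7a from 1157 and 1224 to 379 and 431 (-1.49 ± 0.19) and Wnt10a from 838 and 849.7 to 369 and 283 (-1.30 ± 0.17), while the receptor Fzd4 rose from 102 and 22.7 to 188 and 213 (1.44 ± 0.34). In the Notch pathway, the target Hey1 rose from 13 and 14.9 to 166 and 177 (2.15 ± 0.16). Of 21 tested Notch genes, 4 were higher, near the 18.2% over all genes tested, and 1, the ligand Jag1 (-0.75), was lower (median -0.17). Jag1 lost the call without the filter, without either 0 h array and without the 12 h replicate 2 array, and the number lower was 3 without the 12 h replicate 1 array and 3 with replicate number as a block. The insulin receptor substrate Irs1 fell from 5450.2 and 3543 to 1634 and 1679 (-1.39 ± 0.26), and Klf2, a zinc finger factor of quiescence, rose from 104 and 59.1 to 458 and 513 (2.21 ± 0.20).

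Regulators of apoptosis were called 7 higher and 7 lower of 32, a share of 43.8% beside 35.6% over all genes tested. In each direction the number was 4 without the 0 h replicate 2 array and 3 without the 12 h replicate 2 array. Bcl2l11, which encodes the death-promoting protein BIM, rose from 828 and 622 to 2500.2 and 2035 (1.61 ± 0.30), and Bcl2l1, which encodes the protective BCL-XL, fell from 1576 and 1312 to 741 and 506 (-1.19 ± 0.20). The death-promoting genes Bok and Casp8 fell too, from 1474 and 1481 to 526 and 457 (-1.53 ± 0.17) and from 828 and 757 to 395 and 394 (-0.95 ± 0.17). Of 36 tested cytosolic heat shock genes, 6 were higher and 5 lower (median -0.07), shares near those over all genes tested; 8 were lower with replicate number as a block. The number higher was 3 without the 0 h replicate 2 array, and the number lower was 3 without the 0 h replicate 1 array, 3 without the 12 h replicate 1 array and 2 without the 12 h replicate 2 array. The small chaperone Hspb1 rose from 519.7 and 591 to 1557 and 1713 (1.51 ± 0.17) and Hspa2 from 205 and 216 to 517 and 652 (1.34 ± 0.17), while the co-chaperone Bag2 fell from 1620 and 1411 to 651 and 685 (-1.14 ± 0.17).

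Lipid synthesis genes were also mixed. Srebf1, the regulator of fatty acid synthesis, rose (1.58 ± 0.16), while the elongase Elovl6 fell from 2552 and 2472 to 1198 and 1036 (-1.15 ± 0.16) and the desaturase Fads2 from 1734 and 1863 to 806 and 995 (-0.98 ± 0.19). Lipe, hormone-sensitive lipase, rose from 59 and 100.4 to 228 and 338 (1.5 ± 0.23). In one-carbon metabolism, which feeds nucleotide synthesis, Shmt2 fell from 1979 and 1571 to 943 and 1017 (-0.83 ± 0.17; its further probe sets, at -0.23 and -0.18, were not called) and Cad, of pyrimidine synthesis, from 1757 and 1484 to 947 and 888 (-0.80 ± 0.17), whereas Cth, which makes cysteine, rose from 47 and 73.2 to 218 and 239 (1.51 ± 0.19). Among junction genes, Cdh2, N-cadherin, fell from 2684 and 2899 to 1107 and 807 (-1.53 ± 0.18), and the claudin Cldn9 rose from 41.8 and 47.2 to 285 and 234 (1.93 ± 0.16). The epithelial splicing regulator Esrp2, not itself a junction gene, fell from 566 and 562 to 239 and 192 (-1.28 ± 0.20). For each gene named here the arrays of the 2 times did not overlap, as was so for 70.5% of all genes tested.

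**Figure D5:**
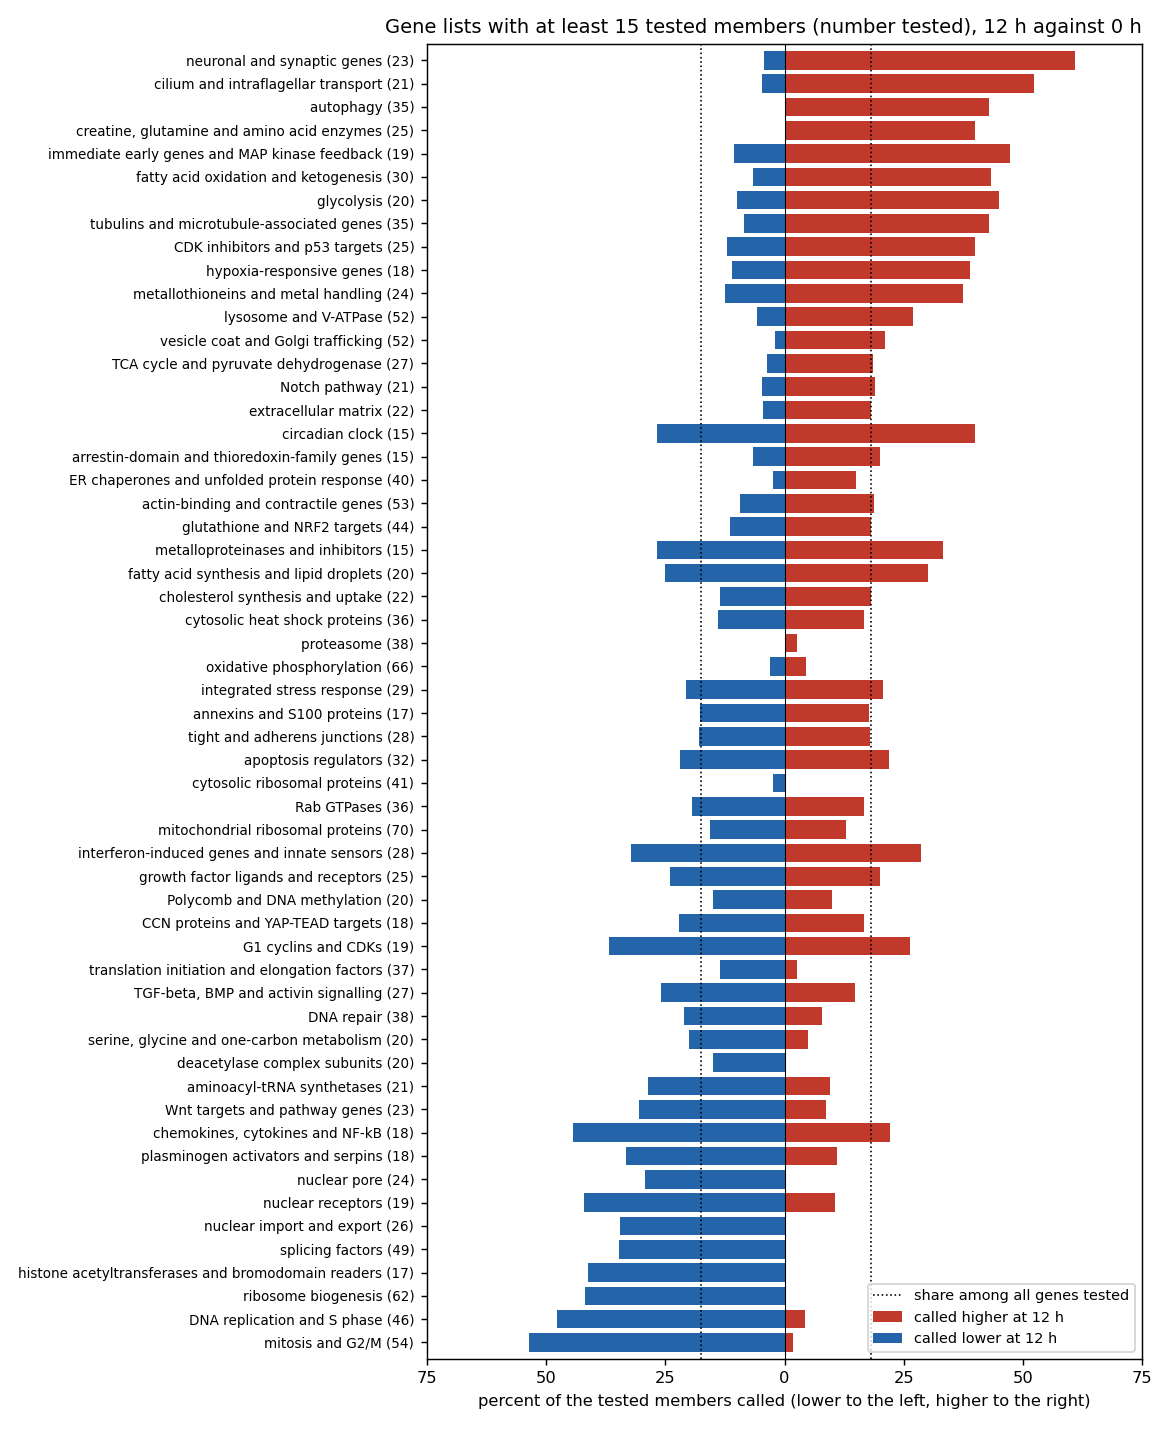
Percent of the tested members of each gene list called lower (blue, to the left) or higher (red, to the right) at 12 h against 0 h, for lists with at least 15 tested members (number tested in brackets). Dotted lines are the shares among all genes tested, 17.4% lower and 18.2% higher; mitosis, replication and ribosome biogenesis lie at the bottom, cilium and autophagy near the top, and the proteasome and cytosolic ribosomal proteins have almost no calls.

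The 12 h arrays were also set against the neighbouring times. From 6 h to 12 h, 149 genes were higher (2.03%) and 157 lower (2.14%), or 4.17% in all, and from 12 h to 24 h, 133 were higher (1.81%) and 263 lower (3.58%), or 5.4% in all. With replicate number as a block these counts were 267 and 314, and 249 and 377. They depended on each single array. From 6 h to 12 h, leaving out the first 6 h array gave 56 higher and 17 lower, the second 45 and 15, the first 12 h array 27 and 15, and the second 24 and 13. From 12 h to 24 h, leaving out the first 12 h array gave 66 higher and 143 lower, the second 28 and 77, the first 24 h array 30 and 131, and the second 26 and 121. With no filter on low signals 0 genes were higher and 1 was lower from 6 h to 12 h, and 29 were higher and 88 lower from 12 h to 24 h. Each comparison shares the 12 h arrays with the one against 0 h, so their values are given only side by side.

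Some leading genes were still moving between 6 h and 12 h. Ccnd1 had 5576 and 5968 at 6 h, 1405 and 1524 at 12 h and 847 and 785 at 24 h (log2 change from 6 h to 12 h -1.96, limma adjusted p = 0.000901). Mmp10 had 52.6 and 158 at 6 h and 3034 and 2396 at 24 h, and it rose both before 12 h (2.75, adjusted p = 0.00445) and after it (1.68, adjusted p = 0.0133). Ckb did likewise (1.43 and 0.69). The changes before 12 h were still called when any 1 of the arrays compared was left out; those of Mmp10 and Ckb were not called without the filter (limma adjusted p = 0.0726 and 0.0682). The changes after 12 h were not called without the 12 h replicate 2 array, with limma adjusted p = 0.105 for Ccnd1, 0.109 for Mmp10 and 0.256 for Ckb, nor without either 24 h array. Other leading genes were near their 12 h level at 6 h. Egr1 had 6391 and 6002 at 6 h, Nupr1 332 and 328, Sco2 168 and 225 and Tacc2 358 and 332, and none of these 4 was called between 6 h and 12 h (limma adjusted p = 0.29, 0.793, 0.836 and 0.274).

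Genes of the mitotic, replication and ribosome biogenesis lists were also followed over the intervals before and after 12 h. Of the 54 mitotic genes, 6 were lower at 12 h than at 6 h and 46 were lower at 24 h than at 12 h, with median log2 changes of -0.40 and -1.33. Of the 46 replication genes the numbers were 11 and 25, with medians of -0.38 and -0.76. Of the 62 ribosome biogenesis genes they were 6 and 6, with medians of -0.33 and -0.20. Cdc20, for example, was at 1057 and 1600.3 at 6 h and 376 and 227 at 24 h, and Utp20 at 474 and 507 and 185 and 224. Without 1 array of the times compared, the falls from 6 h to 12 h were called for 0 or 1 mitotic, 1 or 2 replication and 1 ribosome biogenesis genes. Those from 12 h to 24 h were called for 30 to 39 mitotic, 7 to 16 replication and 0 to 2 ribosome biogenesis genes, in each case fewest without the 12 h replicate 2 array (for ribosome biogenesis also without the 24 h replicate 1 array). With no filter on low signals, 0 genes of the 3 lists were called lower from 6 h to 12 h, and 32 mitotic, 9 replication and 0 ribosome biogenesis genes from 12 h to 24 h. With replicate number as a block, the numbers lower from 6 h to 12 h were 10 mitotic, 15 replication and 15 ribosome biogenesis genes. The difference between the lists was not tested.

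No gene stood apart from all other times at 12 h by the test used. A gene was called highest at 12 h when it exceeded each of 0 h, 6 h and 24 h in the limma fit (the largest of 3 one-sided p-values, adjusted over all genes tested). By that rule 0 genes were highest and 0 lowest, with 49 (0.67%) and 72 (0.98%) at an unadjusted p under 0.05; without the 12 h replicate 2 array 1 gene was lowest. The genes with the smallest unadjusted p-values, chosen after their values were seen, were Tinagl1, a secreted matrix protein, and Cd276, an immune checkpoint molecule. Tinagl1 had 1467 and 1405 at 0 h, 1388 and 1453 at 6 h, 2659 and 2484 at 12 h and 1667 and 1745 at 24 h (limma, unadjusted p = 0.00135). Cd276 had 492 and 499, 262 and 256, 129 and 117 and 189.9 and 208 at the same times (limma, unadjusted p = 0.00157). Srebf1, the lipid synthesis factor, had 1430.3 and 1487, 2873 and 3192, 4804 and 4055 and 3196 and 3003. For each of the 3 the 12 h arrays lay outside the range of the other 6 arrays.

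Where a called gene had further probe sets on the array that passed the filter, 1406 of 1460 (96.3%) moved in the same direction. Among those 1460, the further probe sets called in the opposite direction were 1 each of Mtm1, Nectin2 and Snd1. Another 935 probe sets that passed but were annotated with several genes or with none had 133 higher and 136 lower, or 28.8%, and were named for no gene.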

How the data were processed

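Total RNA of MCE301 cells was hybridised to 8 Affymetrix 430A arrays, per the labels. The deposited table holds a linear intensity per probe set and array, with a 2% trimmed mean of 500.2 on each array; the method and software of the probe summary were not given in the sources used here. Of 22690 probe sets, 64 are controls, 20380 were annotated with 1 gene, 691 with several and 1555 were not listed; 20351 of the named ones matched RefSeq. Values were analysed as log2(signal + 32) with limma 3.58.1 in R 4.3.3 (lmFit and eBayes on all 8 arrays, 4 residual and 6.37 prior degrees of freedom), and summarised with Python 3.11.15 and pandas 2.3.3. The median log2 change of all tested genes was 0.03. The fit was tried before use on simulated data, with independent noise, no pairing of arrays and far fewer changed genes than were called here. It recovered 12% of 50 log2 changes of 0.5 and 100% of 50 changes of 1, with 7 false calls. A gene that was not called may therefore have changed by a small amount.

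The labels number the arrays of each time 1 and 2. Same-numbered arrays deviated together from their time's mean in all 6 pairs of times (r = 0.125 to 0.382). What the numbers stand for is not said in the labels, so whether they pair the arrays is not known. The main fit took no account of the number. The fit with the number as a block is given where it changes a call or moves a count by over 1.5 times. Arrays were grouped by the time in their titles. Alternatives were another pseudocount (16, 64), no filter, a filter at the 75th percentile of all signals (572.2), quantile normalisation, median centring, another probe set per gene, a trended robust prior, the block, only the 4 arrays compared, and each array left out.

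Genes named are, of those called with no overlap between arrays, the 20 that rose most and the 20 that fell most, up to 4 rises and 4 falls of each gene list, and a few genes fixed by name; others are said to have been chosen after their values were seen. The members and lists were chosen with earlier results of these data known. Promoters of genes with no RefSeq entry, and protein sequences, were not used here.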

Additional observations from a re-analysis of the deposited data

How the results depend on the processing

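Of the 410 named genes called at 12 h against 0 h, 275 kept direction and call under every alternative. The 40 largest changes all did, but they were picked for their size among genes called in these same arrays. The counts at 12 h against 0 h moved by over 1.5 times with the stricter filter (868 higher, 835 lower). When 1 of the 4 arrays was left out there were 879 to 939 higher and 779 to 891 lower, and not all of these moved by as much. With replicate number as a block there were 1600 and 1513. Genes past 2-fold numbered 244 higher and 220 lower with the stricter filter; past 1.5-fold they were 1141 and 1079, and past 3-fold 133 and 79. From 6 h to 12 h there were 0 higher and 1 lower without the filter, 267 and 314 with replicate number as a block, 32 and 14 with only the 4 arrays compared, and 24 to 56 and 13 to 17 without 1 array. From 12 h to 24 h there were 29 higher and 88 lower without the filter, 249 higher with the block (377 lower), and 26 to 66 and 77 to 143 without 1 array. Genes lowest at 12 h numbered 0 to 1 without 1 array. Cdkn1a, which was not called, changed by -0.38 without the 12 h replicate 1 array and, with the opposite sign, by 0.04 without the 12 h replicate 2 array. Fewer arrays, or fewer genes tested, enter the smaller counts by construction; the cause of the other moves was not tested. The 2 arrays a time limit the precision, and signals below the median of 144.5 were compared only where at least 2 arrays exceeded it.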

Other observations

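Several gene groups that appear in no comparison above were called in both directions at 12 h against 0 h, with calls by limma at an adjusted p under 0.05. Of 18 tested plasminogen activators, serpins and serine proteases, 2 were higher and 6 lower. Plat, tissue plasminogen activator, had signals of 2512 and 2749 at 0 h and 7589 and 9149 at 12 h (1.65 ± 0.17), and Serpinb9, a granzyme B inhibitor, had 1457 and 1547 and 375 and 519.8 (-1.69 ± 0.18). Of 14 genes of the cornified envelope, 3 were higher and 6 lower; Tgm1, its crosslinking enzyme, went from 879.9 and 1118 to 431 and 482 (-1.07 ± 0.19) and Scel, sciellin, from 799.7 and 696 to 1949 and 1644 (1.23 ± 0.24). The ephrin ligand Efna3 rose from 129 and 155 to 635 and 674 (1.98 ± 0.15).

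Mitochondrial ribosomal proteins were called 9 higher and 11 lower of 70, a share of 28.6% that is below the 35.6% over all genes tested; leaving out 1 of the 4 arrays, whichever it was, gave 3 to 5 higher and 5 or 6 lower. Mrps18b fell from 1924 and 1744 to 838 and 873 (-1.07 ± 0.17) and Mrpl28 rose from 1241 and 1179.7 to 2102 and 2211 (0.82 ± 0.15; 0.88 and -0.01 for its further probe sets). Of 52 genes of vesicle coats and Golgi trafficking, 11 were higher and 1 lower (3 lower with replicate number as a block). None of these changed by 2-fold, and the share called, 23.1%, was below the 35.6% over all genes tested. The number higher was 5 without the 0 h replicate 1 array and 4 without the 0 h replicate 2 array. It was 7 without the 12 h replicate 1 array and 4 without the 12 h replicate 2 array. Of 11 imprinted genes, 5 were higher and 4 lower, but 4 of the 5 had both 0 h arrays at or below the level of the filter and passed it through other arrays; Phlda2, a growth-restraining gene of the placenta, fell from 677 and 667 to 274 and 298 (-1.15 ± 0.18), and the number higher was 1 without the 0 h replicate 1 array, 3 without the 0 h replicate 2 array, 3 without the 12 h replicate 1 array and 2 without the 12 h replicate 2 array, with 1 to 3 lower.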
